A study of Danio rerio with 4 samples.

Results

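The glycolysis enzyme genes hk1, aldoaa, aldoab, gapdh, gapdhs, pgk1, eno1a, pkma, ldha and ldhba were followed across RNA-seq libraries of sorted zebrafish larval cells. They were chosen by name, and the 10 symbols were present among the 42298 genes of the files. The cells were mCherry-positive cells isolated by fluorescence-activated sorting from whole larvae that had been dissociated at 5 days post-fertilization (dpf), a fraction described as enriched for β-cells. There were 2 libraries from wild-type larvae and 2 from larvae with the genotype alms1-/-, and larvae of both genotypes carried Tg(ins:mCherry), in which the insulin promoter drives the red reporter. The labels name no treatment. Cells of pooled larvae were used, and the alms1 allele is not given in the sources used here. The samples were prepared in duplicate, and nothing says that duplicates came from separate sorts, so the p-values measure only the spread between these libraries, which may be technical.

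Glycolysis splits glucose into pyruvate in the cytosol and yields ATP and NADH. Hexokinase traps glucose as its phosphate, aldolase cleaves the phosphorylated hexose, and glyceraldehyde-3-phosphate dehydrogenase (GAPDH), phosphoglycerate kinase, enolase and pyruvate kinase carry out later steps. Lactate dehydrogenase turns pyruvate into lactate and regenerates NAD. In β-cells the rate of glucose breakdown sets insulin release, and mature mammalian β-cells rely on the low-affinity enzyme glucokinase while hexokinase and lactate dehydrogenase A are kept low. Fast muscle has a very high glycolytic capacity. Zebrafish keep duplicate copies of many of these genes, and aldoab and gapdh are the forms rich in larval skeletal muscle. By their mammalian names, aldolase A, pyruvate kinase M and lactate dehydrogenase A are forms of muscle and many other tissues, lactate dehydrogenase B is the heart form, and GAPDHS is in mammals a sperm form. The zebrafish gene named gapdhs also carried the symbol gapdh in the past.

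The libraries held 42761199 to 50467517 reads on genes. For 99.4% of genes, all 10 described here included, the length behind the deposited values was the whole gene span, introns included. Of the 20 β-cell markers all had reads, 5 were higher, 1 was lower (insm1a) and 14 were not called, where 19.2% of all tested genes were higher and 24.3% lower. These markers summed to 213 and 212 CPM in wild type against 286 and 291 CPM in mutants. The gene of the reporter's promoter, ins, was at 0.752 and 1.86 TPM in wild type against 24.96 and 23.7 TPM in mutants, where TPM, an abundance per length, stands for reads per kb of span scaled to a common total. The mutant libraries therefore held more ins transcript, and the wild-type libraries hardly any. Skin markers took 3.61% to 4.88% of reads in wild type and 0.629% to 0.644% in the mutants, and 11 of 11 were lower. Skeletal muscle markers took 0.256% and 0.258% in wild type against 0.994% and 0.745% in the mutants, and 13 of 18 were higher. Low coverage across genes spanning 80 to 160 kb, read as their 10th percentile, was 8.03 and 5.23 reads per kb in wild type against 15.005 and 21.8 in mutants. alms1 had 3.44 and 2.02 TPM in wild type against 1.65 and 4.78 TPM in mutants, which overlapped, and was not called (log2 fold change -0.81 ± 0.368 SE, edgeR adjusted p = 0.104). In such bulk samples, fewer cells of a type and less RNA per cell cannot be told apart.

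The glycolysis genes did not move as a body between the genotypes. gapdh, a larval muscle form, rose 2.76-fold in the mutants, aldoab, the other such form, was not called, and the remaining 8 genes fell by 1.04 to 1.72 on the log2 scale. These values compare reads relative to the library (CPM), with library sizes corrected by TMM, and a call means an adjusted p under 0.05 in edgeR's quasi-likelihood test over the 28079 genes tested, with Benjamini-Hochberg adjustment. Of all tested genes 19.2% were called higher and 24.3% lower. Genes of like span and level mostly fell as well. Among 2612 other protein-coding genes that spanned 4.93 to 40.6 kb and had a mean of 33.2 to 377 CPM over the 4 libraries, the ranges of the 10 genes, 78.2% were lower and 3.22% were higher. The median log2 fold change of the 10 genes was -1.35, against -1.44 for those like genes and 0.03 for all genes. The 8 lower of the 10 genes were thus near the share of the like genes. For gapdh, 22 of the 2612 like genes (0.842%) had a log2 fold change as high as gapdh or higher. The comparison with like genes was chosen after seeing the data.

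The size of the differences depended on the scale. On log2(TPM + 1), tested with limma-trend, gapdh (2.42 ± 0.342 SE, adjusted p = 4.93e-08) and aldoab (1.04 ± 0.419 SE, adjusted p = 0.0396) were higher and 0 of the 10 were lower, where 35.2% of all genes were called higher and 5.87% lower. With TMM 44.0% of all calls were in the higher direction, and on log2(TPM + 1) 85.7%. On that scale the median of all genes was itself shifted by 0.69, and the 10 genes had a median of -0.34. Taken relative to the median of all genes, gapdh was at 1.73, aldoab at 0.35 and the other 8 between -1.39 and -0.72. Of the like genes 22.1% were lower and 6.66% higher on log2(TPM + 1), with a median of -0.40, near that of the 10 genes. As high as aldoab or higher were 6.70% of the like genes, and as high as gapdh or higher 0.651%. With library totals and no TMM the all-gene median was 0.57, and 5 of the 8 were still called lower (hk1, aldoaa, gapdhs, pkma and ldhba), where 29% of all genes were called higher and 12.8% lower, and 53.7% of the like genes were lower. After subtraction of the low coverage of long genes from every gene, chosen after seeing the data, gapdh was higher and 4 genes (hk1, gapdhs, pkma and ldhba) were lower, where 10.6% of all genes were called higher and 15.4% lower, and 43.5% of the like genes were lower.

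**Figure D1:**
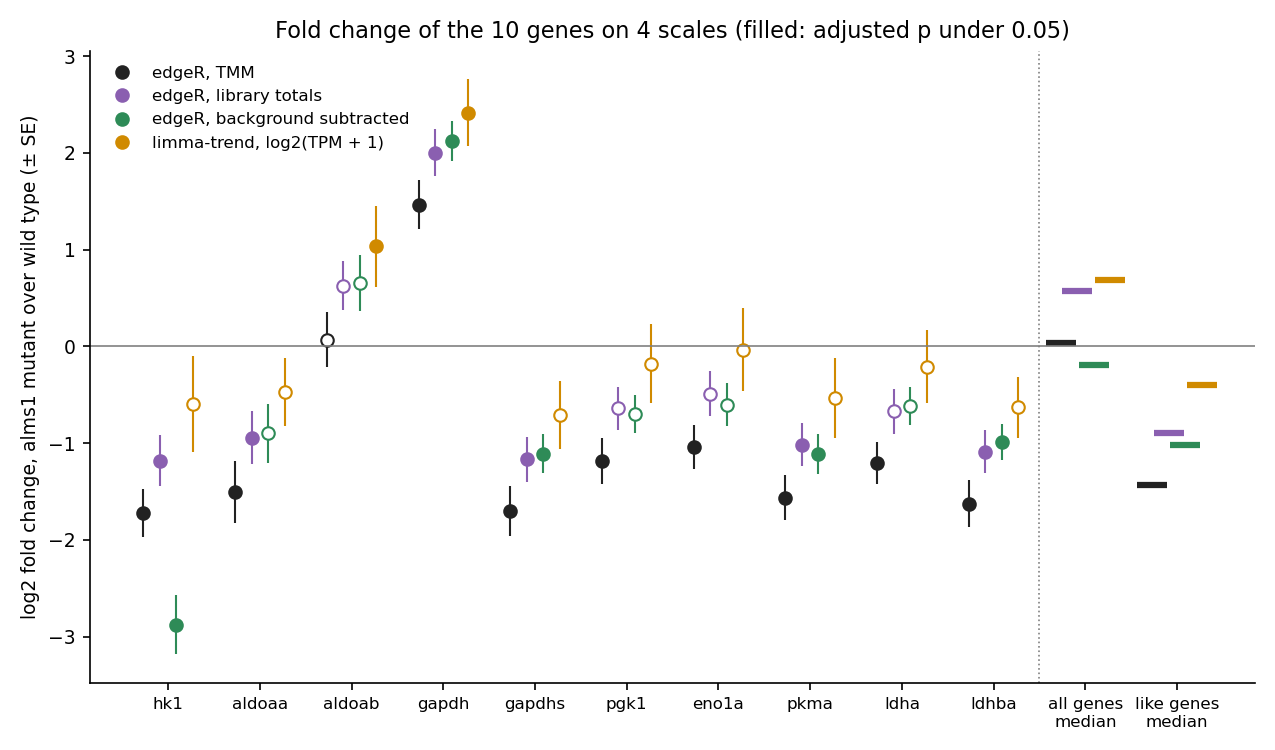
Log2 fold change (alms1 mutant over wild type, vertical axis, ± SE) of each of the 10 genes on 4 scales, with filled points called at an adjusted p under 0.05 and bars at the right for the median of all tested genes and of genes of like span and level. gapdh is above 0 on every scale drawn (1.46 with TMM, 2.42 on log2(TPM + 1)), while the 8 genes other than gapdh and aldoab lie below 0 on each scale, hk1 reaching -2.88 after background subtraction, and the like genes have a median of -1.44 with TMM.

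In wild type the levels per length spanned a wide range, and they are given as mean TPM ± SD of 2 libraries. ldhba led with 275 ± 65.1 and lay at percentiles 99.1 and 98.9 of the genes with reads in each library. Then came gapdhs with 95.6 ± 20.9, aldoaa with 82.2 ± 5.50, ldha with 51.3 ± 15.3 and gapdh with 42.2 ± 7.88. pkma had 24.8 ± 5.31, pgk1 22.1 ± 3.91, eno1a 14.9 ± 2.55, aldoab 11.6 ± 0.298 and hk1 6.10 ± 1.45. Neighbours in this order did not differ beyond the spread of their libraries for gapdhs and aldoaa, for ldha and gapdh, and for pkma and pgk1, and the other neighbours did not overlap. hk1 was still at percentiles 73.4 and 74.8. Because the length counts introns, a gene with long introns such as pkma (40595 bp) or hk1 (34926 bp) is set low in this order against a short one such as gapdh (4931 bp). In CPM of library totals, with no division by length, gapdhs came first with 478 ± 15.8 and aldoab and gapdh last, both at 41.5.

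**Figure D2:**
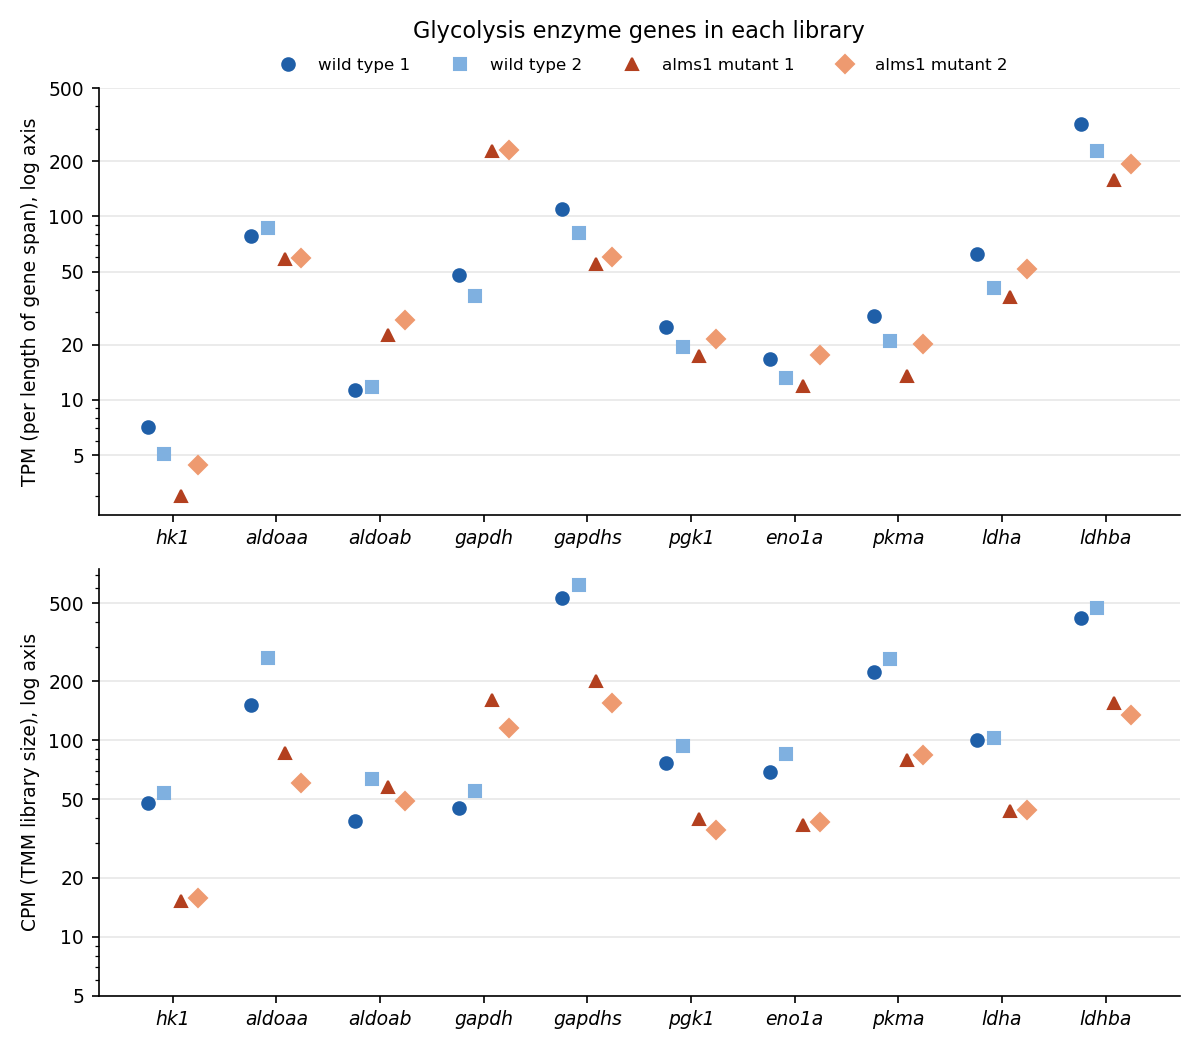
Level of each of the 10 genes in each of the 4 libraries, as TPM (upper panel) and as TMM-scaled CPM (lower panel), both on log axes. On both scales the mutant points of gapdh (226 and 230 TPM) lie above its wild-type points (47.8 and 36.7 TPM), whereas for pgk1, eno1a and ldha the genotypes are apart in CPM and overlap in TPM.

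hk1 encodes a high-affinity hexokinase, which traps glucose as its phosphate. The gene lies on chromosome 13 from 22842438 to 22877363 of GRCz10, on the minus strand. It had 2208 and 1940 reads in wild type against 746 and 967 in mutants, or 47.9 and 53.9 CPM against 15.1 and 15.7 CPM. Both mutant libraries were below both wild-type libraries. The log2 fold change was -1.72 ± 0.247 SE (adjusted p = 0.00154), a 3.30-fold lower level. In TPM the values were 7.12 and 5.07 against 2.99 and 4.40, again without overlap, but not called (adjusted p = 0.334). The coverage of hk1 in the mutants, 21.4 and 27.7 reads per kb, was 1.42 and 1.27 times the low coverage of long genes in the same libraries, where in wild type it was 7.88 and 10.6 times. In the mutants little of the hk1 signal thus stood above that coverage, and after its subtraction the log2 fold change was -2.88.

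Within the hexokinase step the make-up shifted with genotype. hk1 held 45.9% and 50.1% of the step's TPM in wild type against 20.6% and 19.9% in mutants. By reads hk1 held 25.4% and 24.1% in wild type against 10.8% and 11.5% in mutants. hk2, which spans 133.9 kb, held most of the step's reads, 69.9% and 74.1% against 81.0% and 78.0%. The lead of hk1 in wild type thus rests on the division by span. The other hexokinase genes did not pass the test with TMM. hk2, the hexokinase of muscle and fat in mammals, had a log2 fold change of -0.44 (adjusted p = 0.152), hkdc1, a hexokinase-like gene, of 0.98 (adjusted p = 0.131) and gck, the glucokinase of β-cells and liver, of 0.95 (adjusted p = 0.204). On log2(TPM + 1), tested with limma-trend, hkdc1 (1.42, adjusted p = 0.0208) and gck (1.02, adjusted p = 0.0447) were higher. There hk2 was not called (0.48, adjusted p = 0.438), and 35.2% of all genes were higher. gck was low throughout, at 0.930 and 0.357 TPM in wild type against 1.43 and 3.41 TPM in mutants. Its coverage was 1.03 and 0.747 times the low coverage of long genes in wild type against 0.681 and 0.987 times in mutants. For hkdc1 it was 2.62 and 1.32 times against 2.01 and 1.89 times, and for hk2 5.65 and 8.54 times against 2.79 and 2.24 times. The shares of the step, by TPM and by reads, thus include that coverage.

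Aldolase cleaves fructose-1,6-bisphosphate, and its duplicate A genes parted. aldoaa (chromosome 3, 39425126 to 39435194, plus strand) had 152 and 264 CPM in wild type against 85.8 and 60.9 CPM in mutants. The wild-type libraries were apart from each other by more than the mutants were, yet the genotypes did not overlap. The log2 fold change was -1.50 ± 0.318 SE (adjusted p = 0.00673). The call of aldoaa was lost without the second mutant library (adjusted p = 0.0768) and after subtraction of the long-gene coverage (adjusted p = 0.0896). aldoab (chromosome 12, 4015415 to 4033068, minus strand) had 38.6 and 63.3 CPM in wild type against 57.8 and 48.9 CPM in mutants. Both mutant values fell between those of wild type, and the log2 fold change was 0.07 ± 0.283 SE (adjusted p = 0.861). In TPM aldoab was at 11.4 and 11.8 in wild type against 22.6 and 27.1 in mutants, with no overlap.

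A copy of the brain form of aldolase, aldocb, moved with aldoaa and changed by -1.22 ± 0.221 SE on the log2 scale (adjusted p = 0.00366). Its duplicate aldoca was low, at 2.05 TPM or less, and not called (log2 fold change -0.35, adjusted p = 0.599).

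At GAPDH, which oxidizes glyceraldehyde-3-phosphate and makes NADH, the genes moved in opposite directions. gapdh (chromosome 16, 17284694 to 17289624, minus strand) had 2094 and 1980 reads in wild type against 7966 and 7126 in mutants, which is 45.4 and 55.1 CPM against 161 and 116 CPM. Both mutant libraries lay well above both of wild type. The log2 fold change was 1.46 ± 0.255 SE (adjusted p = 0.00315). gapdh was called higher in 15 of 15 alternative analyses, with log2 fold changes from 1.196 to 2.44. gapdhs, the other GAPDH gene (same chromosome, 45077926 to 45103098, minus strand), had 24664 and 22277 reads in wild type against 9896 and 9492 in mutants, or 535 and 619 CPM against 200.6 and 154 CPM. It was the most read of the 10 genes in every library, and its mutant values were below those of wild type, with a log2 fold change of -1.70 ± 0.260 SE (adjusted p = 0.00195). The call of gapdhs was lost without the second mutant library (adjusted p = 0.0528).

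The sum of both GAPDH genes therefore went opposite ways on the scales. In TPM it was 158 and 117 in wild type against 281 and 290 in mutants, a log2 ratio of 1.05. In TMM-scaled CPM it was 580 and 675 in wild type against 362 and 270 in mutants, a log2 ratio of -0.99. The spans of 4.93 kb and 25.2 kb weigh the genes differently in those sums, and no test was run on them.

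Phosphoglycerate kinase makes the pathway's first ATP and has a single gene here, pgk1 (chromosome 21, 37761061 to 37776965, plus strand). It had 76.3 and 93.8 CPM in wild type against 39.9 and 34.9 CPM in mutants. The genotypes did not overlap in CPM, and the log2 fold change was -1.18 ± 0.233 SE (adjusted p = 0.00510). In TPM they did overlap, at 24.9 and 19.4 against 17.3 and 21.5. The call of pgk1 was lost with library totals (adjusted p = 0.0538), after background subtraction, that of the long-gene coverage (adjusted p = 0.0621), and without the second mutant library (adjusted p = 0.0653).

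Enolase makes phosphoenolpyruvate, and eno1a (chromosome 23, 22729939 to 22751294, plus strand) is a copy of its ubiquitous alpha form. It had 68.8 and 85.4 CPM in wild type against 36.9 and 38.2 CPM in mutants. This was the smallest fall of the 8, with a log2 fold change of -1.04 ± 0.230 SE (adjusted p = 0.00804). In TPM eno1a was at 16.7 and 13.1 in wild type against 11.9 and 17.5 in mutants, and the ranges overlapped. Its call was lost without either mutant library (adjusted p = 0.0701 and 0.0692), with library totals (adjusted p = 0.121) and after background subtraction (adjusted p = 0.108). eno1b, its duplicate, and eno3, the muscle form in mammals, were lower as well (-1.13 ± 0.364 SE, adjusted p = 0.0347, and -0.85 ± 0.238 SE, adjusted p = 0.0201). eno2, the neuronal form, was not called (0.02, adjusted p = 0.974), and eno4, an enolase-like gene of sperm in mammals, was higher (1.64 ± 0.531 SE, adjusted p = 0.0357). The coverage of eno4 was 1.75 and 0.744 times the low coverage of long genes in wild type against 1.92 and 1.99 times in mutants. After background subtraction the calls of eno4 (adjusted p = 0.355), eno1b (adjusted p = 0.171) and eno3 (adjusted p = 0.297) were lost.

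Pyruvate kinase yields pyruvate and ATP, and its genes moved in opposite directions. pkma (chromosome 18, 1018606 to 1059200, plus strand), a copy of the M gene, had 223 and 260 CPM in wild type against 79.4 and 84.1 CPM in mutants. The mutant libraries were close to each other and far below wild type, with a log2 fold change of -1.56 ± 0.229 SE (adjusted p = 0.00165). Its duplicate pkmb had 16.5 and 22.5 CPM in wild type against 34.9 and 32.1 CPM in mutants, and rose by 0.78 ± 0.271 SE (adjusted p = 0.0454). pklr, the liver and red cell form in mammals, had 8.99 and 12.4 CPM in wild type against 23.8 and 21.5 CPM in mutants, and rose by 1.08 ± 0.307 SE (adjusted p = 0.0212). By TPM the share of pkma in the step went from 71.7% and 68.2% to 26.2% and 29.3%, and that of pklr from 22.4% and 25.2% to 60.9% and 58.1%. By reads pkma kept the larger share, 57.5% and 61.0% in the mutants, since pkma spans 40.6 kb and pklr 5.24 kb. Of the pkmb reads 83.7% were uniquely mapped, and of those of each of the 10 genes 99.7% or more. The call of pklr was lost without either mutant library (adjusted p = 0.109 and 0.0755), and that of pkmb in 6 of 14 alternatives, with adjusted p values of 0.201 and 0.139 without the first and the second mutant library, 0.0872 without the first wild-type library, 0.0657 with the replicate block, 0.0577 after background subtraction and 0.0503 with no filter on low counts.

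Lactate dehydrogenase was represented mostly by ldhba, the heart form (chromosome 4, 16840135 to 16846928, minus strand). It had 420 and 473 CPM in wild type against 155 and 134 CPM in mutants. Both mutant libraries were below both of wild type, in TPM too (321 and 229 against 158 and 193), and the log2 fold change was -1.62 ± 0.241 SE (adjusted p = 0.00175). ldha, the form that favours lactate in muscle (chromosome 25, 25028201 to 25036565, plus strand), had 100.1 and 103 CPM in wild type against 43.9 and 44.3 CPM in mutants. The libraries of a genotype were nearly equal, and the log2 fold change was -1.21 ± 0.215 SE (adjusted p = 0.00344). In TPM the genotypes overlapped for ldha, at 62.1 and 40.6 against 36.2 and 51.7. ldha was no longer called after background subtraction (adjusted p = 0.0815), with library totals (adjusted p = 0.0503) or among genes under 10 kb alone (adjusted p = 0.0965), whereas ldhba was still called after the subtraction (adjusted p = 0.0318). ldhbb, the duplicate of ldhba, held 0.398% to 2.07% of the step's TPM and was not called with TMM (0.66, adjusted p = 0.268). On log2(TPM + 1), tested with limma-trend, ldhbb was higher (1.19, adjusted p = 0.0481), as were 35.2% of all genes.

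The share of a paralogue within a library does not depend on the scaling between libraries. Of gapdh and gapdhs together, gapdh held 30.2% and 31.2% of TPM in wild type against 80.4% and 79.3% in mutants. The main GAPDH transcript per length was thus gapdhs in wild type and gapdh in the mutants, and the log2 ratio of the genes changed by 3.16. Of the A-type aldolases, aldoab held 12.7% and 12.04% in wild type against 27.8% and 31.4% in mutants, so aldoaa led in every library. ldhba held 83.8% and 84.9% of it and ldha in wild type against 81.3% and 78.9% in mutants, a log2 ratio change of -0.42. The genotypes did not overlap in any of the 3 pairs. With 2 libraries against 2 the exact permutation test is limited to a two-sided p of 0.333, its smallest value, which each pair had. By reads, gapdh held 7.83% and 8.16% in wild type against 44.6% and 42.9% in mutants, so that the lead in the mutants rests on the division by span.

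**Figure D3:**
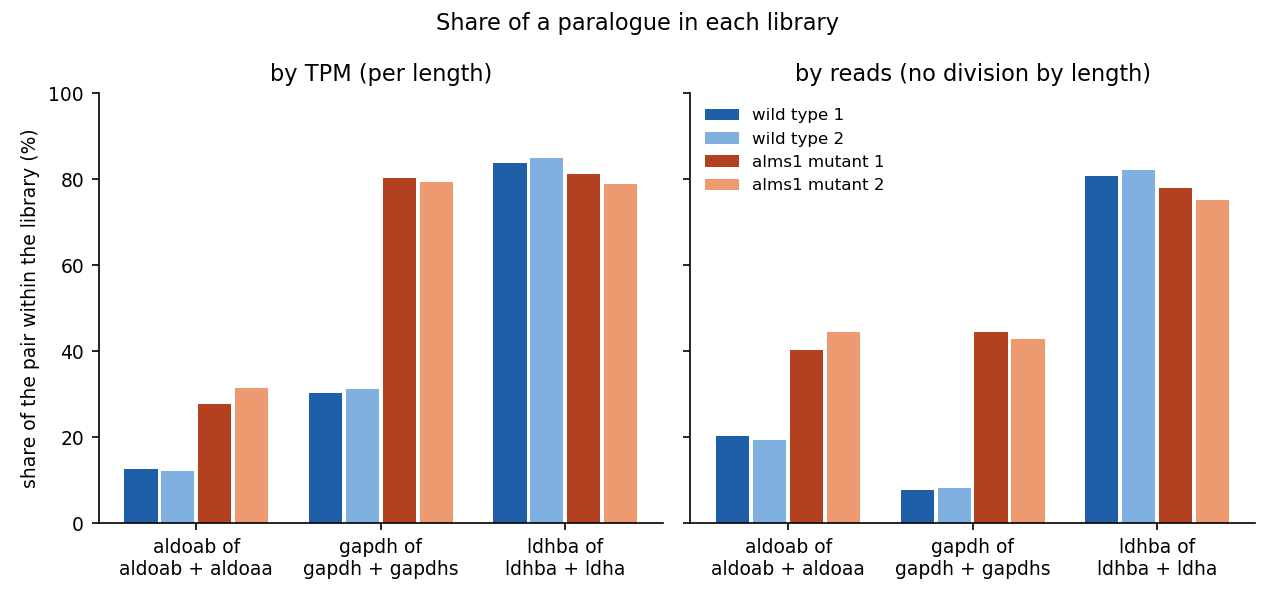
Share (%, vertical axis) of aldoab, gapdh and ldhba in the sum with the paralogue, in each of the 4 libraries, by TPM (left) and by reads (right). The bars of gapdh go from 30.2% and 31.2% to 80.4% and 79.3% by TPM, and those of ldhba stay between 78.9% and 84.9%.

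Transcripts of muscle, pancreatic acinar cells, liver, skin and leukocytes moved with genotype beside these genes, where 19.2% of all genes were higher and 24.3% lower. gapdh had 16.2 and 16.1 reads per 1000 reads of the 18 skeletal muscle markers in wild type against 18.7 and 19.5 in mutants. It therefore kept nearly the same proportion to the muscle list in all libraries, a log2 change of 0.25. The proportion of gapdh to 2 other lists that were mostly higher changed little too. Of 15 acinar markers 12 were higher, with 890 and 1308 CPM in wild type against 4055 and 2651 CPM in mutants, and per 1000 of their reads gapdh changed by -0.15 on the log2 scale. Per 1000 reads of the 8 liver markers, of which 7 were higher, it changed by -0.09. aldoab did not keep its proportion to the muscle list, with 13.8 and 18.5 reads per 1000 in wild type against 6.71 and 8.26 in mutants, a log2 change of -1.10. pgam2, the muscle form of phosphoglycerate mutase, named here after its values were seen, had 1.70 and 1.87 reads per 1000 muscle reads in wild type against 1.55 and 1.94 in mutants. Together the other 8 genes made up 0.148% and 0.147% of reads in wild type against 0.0758% and 0.0712% in mutants. Each of them fell less than the skin list did, so per 1000 skin reads their log2 change was between 1.54 and 2.23. The 8 leukocyte markers, of which 6 were lower, summed to 539 and 541 CPM in wild type against 218 and 194 CPM in mutants. Their median log2 fold change was -1.42, near the -1.44 of the like genes, of which 78.2% were lower. The spans and levels of the markers were not matched to other genes. No tested marker of these 5 lists was at 0 reads in any library, and apart from these values the part of those cell types in the gene differences was not tested.

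**Figure D4:**
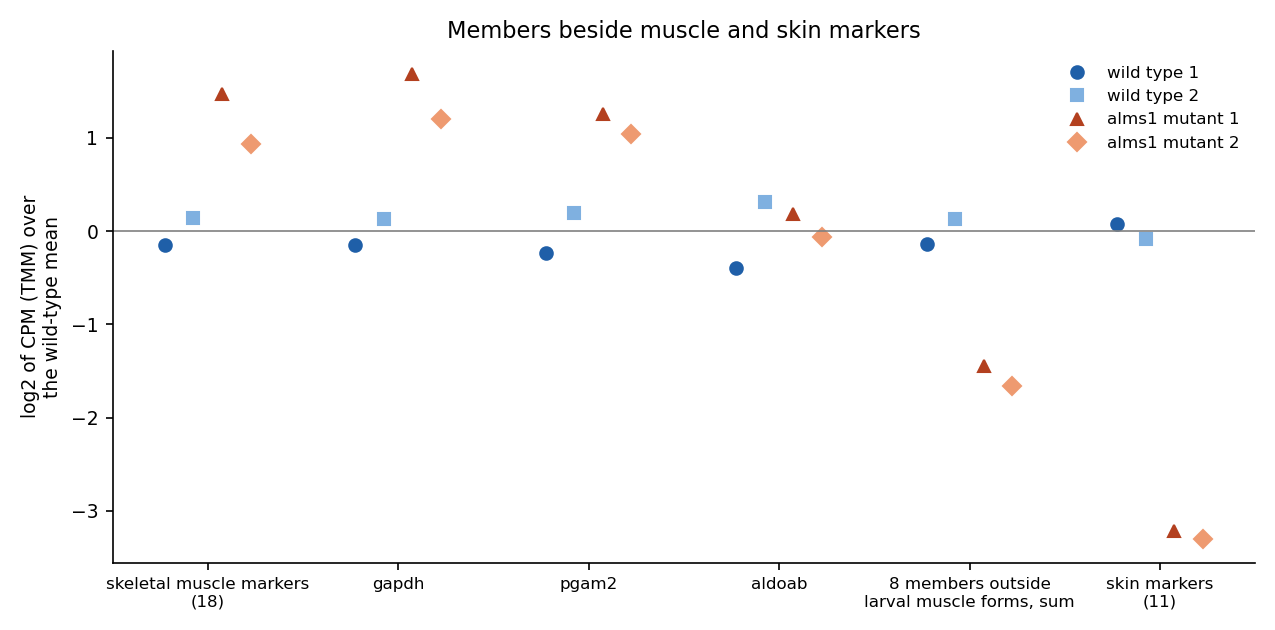
Log2 of TMM-scaled CPM over the wild-type mean (vertical axis) in each of the 4 libraries for the sum of 18 skeletal muscle markers, gapdh, pgam2, aldoab, the sum of the 8 genes outside the larval muscle forms, and the sum of 11 skin markers. gapdh in the mutants (1.68 and 1.21) is near the muscle sum (1.47 and 0.93), the sum of the 8 genes is at -1.44 and -1.66, and the skin sum at -3.22 and -3.31.

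Of 27 other glycolysis genes 6 were higher, 7 lower and 14 not called, with a median log2 fold change of 0.07. These counts were near the shares of all genes, 19.2% higher and 24.3% lower. On log2(TPM + 1) 10 of the 27 were higher, near the 35.2% of all genes, and 0 lower, with a median of 0.89, and 3 of the 7 lower genes (gpia, tpi1b and eno3) had a log2 fold change above 0. pfkmb and pfkma, the muscle-type genes of phosphofructokinase, the main control point of the pathway, were higher by 2.33 ± 0.468 SE (adjusted p = 0.00546) and 1.84 ± 0.379 SE (adjusted p = 0.00604). They were low, with 1.65 and 1.45 CPM for pfkmb in wild type against 6.79 and 8.82 CPM in mutants. The coverage of pfkmb was below the low coverage of long genes in every library, 0.291 and 0.306 times it in wild type and 0.686 and 0.767 times in mutants, so after its subtraction pfkmb was not tested, while pfkma was still called (adjusted p = 0.0384). pgam2 was higher too (1.15 ± 0.374 SE, adjusted p = 0.0355). Without each library in turn, 2 of these 13 calls held, those of pfkma and of pfkmb with its reads below that coverage. Genes of muscle forms, by name or as forms rich in larval muscle, were thus found on both sides. gapdh, pgam2, pfkma, pfkmb and pkmb were higher, and aldoaa, pkma, ldha and eno3 lower. aldoab and hk2 were not called.

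**Figure D5:**
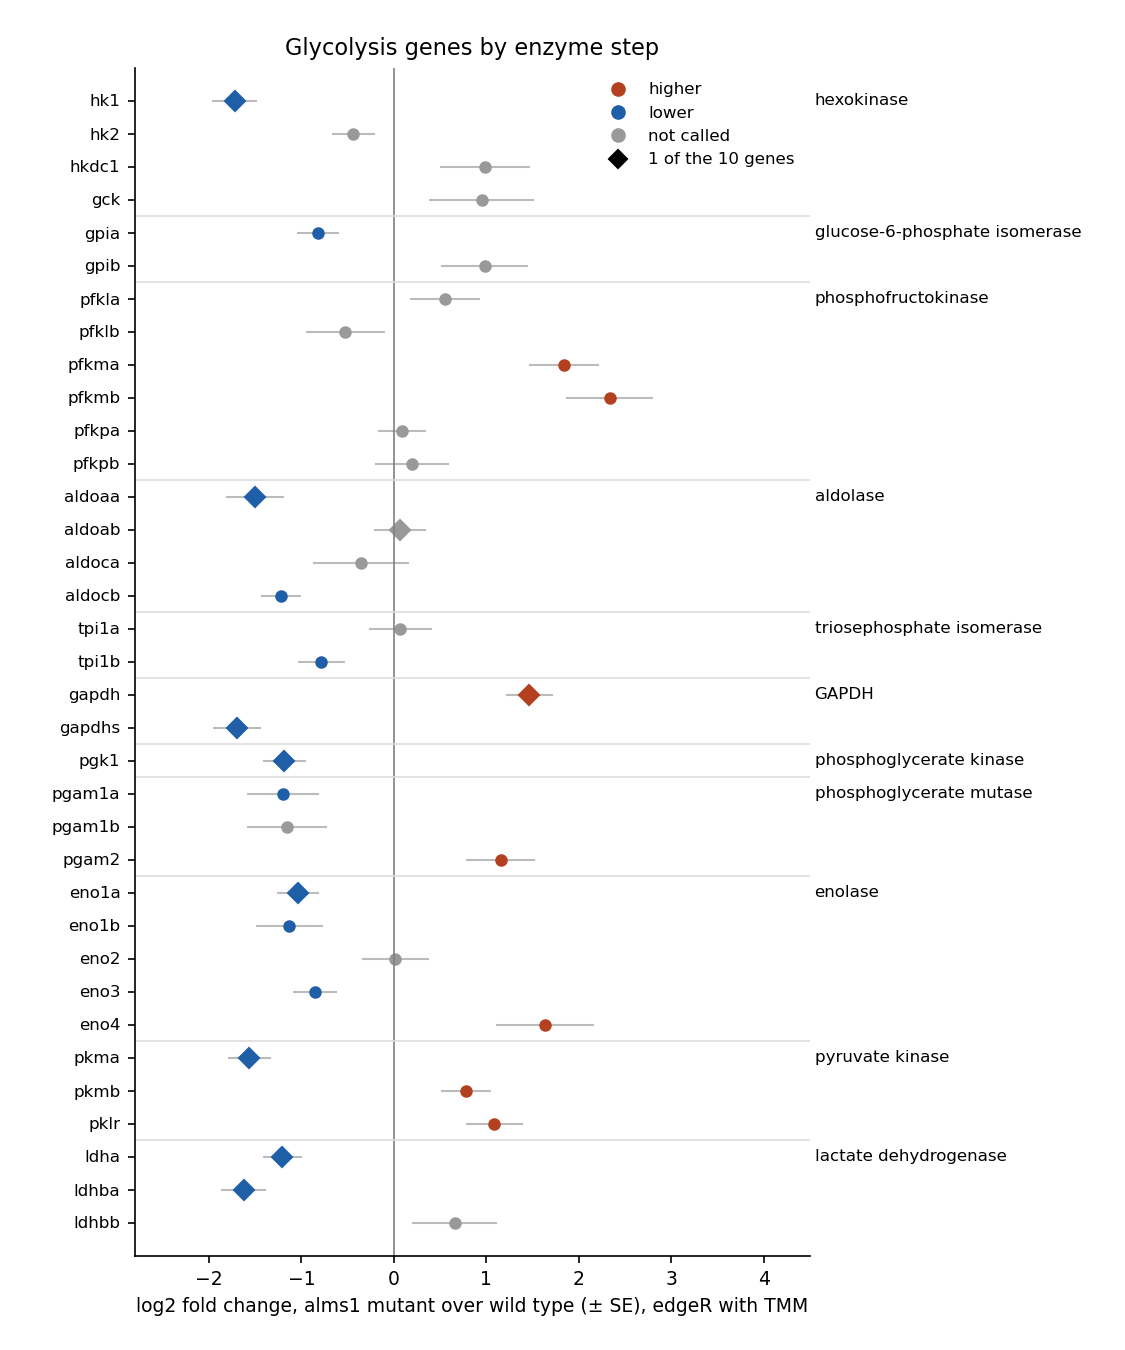
Log2 fold change (alms1 mutant over wild type, horizontal axis, ± SE, edgeR with TMM) of the glycolysis genes named here and others of the pathway, in the order of the steps, with the 10 genes as diamonds and the colour giving the call. At several steps called genes of the same enzyme lie on opposite sides of 0, such as gapdh at 1.46 and gapdhs at -1.70. Phosphoglycerate mutase, enolase and pyruvate kinase are other such steps.

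In the pathways around glycolysis, the listed genes for pyruvate entry into mitochondria, its conversion there and the control of that conversion were mostly lower with TMM. Of 15 tested, 9 were lower and 2 higher (pcxa and pcxb), with a median of -1.36. Of all genes 24.3% were lower and 19.2% higher. Among the genes of like span and level to the glycolysis genes, 78.2% were lower and 3.22% higher, with a median of -1.44. Against those genes this list did not stand out as lower. On log2(TPM + 1) 2 genes of the list were lower and 4 higher, where 5.87% of all genes were lower and 35.2% higher. Their spans and levels were not matched to other genes. They included mpc2 of the mitochondrial pyruvate carrier (-1.93 ± 0.256 SE), pdhx and pdha1a of pyruvate dehydrogenase (-2.10 ± 0.308 SE and -1.47 ± 0.228 SE) and its kinase pdk2a (-1.68 ± 0.222 SE). Of 8 pentose phosphate genes 5 were lower and 0 higher, with a median of -1.03, and on log2(TPM + 1) none was called. tktb, a transketolase, was at -1.79 ± 0.257 SE, rpe at -1.75 ± 0.277 SE and rpia at -1.17 ± 0.332 SE, both isomerizing pentose phosphates. taldo1, a transaldolase, was at -1.75 ± 0.279 SE on reads of which none was uniquely mapped.

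Of 15 glycogen genes 6 were higher and 1 lower, with a median of 0.29, against 19.2% of all genes higher and 24.3% lower. On log2(TPM + 1) 6 were higher and 0 lower, near the 35.2% of all genes higher and 5.87% lower on that scale. The higher ones included pygma, the muscle glycogen phosphorylase (1.74 ± 0.350 SE), gys2, the liver glycogen synthase (1.87 ± 0.396 SE), and the branching enzyme genes gbe1b and gbe1a (1.08 ± 0.237 SE and 1.47 ± 0.399 SE). Of 9 gluconeogenesis genes, which went both ways, 4 were higher and 4 lower, and on log2(TPM + 1) 4 were higher and 1 lower. g6pca.2, a glucose-6-phosphatase of liver, was at 1.80 ± 0.227 SE, and the fructose-bisphosphatase copies parted, with fbp1b at 1.68 ± 0.279 SE and fbp1a at -2.19 ± 0.289 SE. pck1, which starts glucose synthesis, was at 1.17 ± 0.253 SE, also on reads with no unique place. In the liver list 7 of 8 markers were higher in the same libraries, with 0.0162% and 0.0187% of reads in wild type against 0.0837% and 0.0646% in mutants and none at 0 reads, and 13 of 18 muscle markers were higher too. Their part in these genes was not tested.

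Of 10 genes for glucose and lactate transport 3 were higher and 4 lower, against 19.2% of all genes higher and 24.3% lower. slc2a1a (2.197 ± 0.403 SE) and slc2a1b (-1.13 ± 0.242 SE), duplicates of the GLUT1 transporter, went opposite ways. slc2a2, the GLUT2 transporter of β-cells and liver, rose by 1.82 ± 0.426 SE and slc16a1a, a lactate transporter, by 1.16 ± 0.285 SE. Of 16 regulators 2 were higher and 5 lower, near those shares of all genes. pfkfb3 (-1.73 ± 0.274 SE), pfkfb4a (-1.85 ± 0.322 SE, with 45.6% of reads unique) and pfkfb4b (-0.77 ± 0.220 SE), which set the level of the activator of phosphofructokinase, were lower. hif1ab (-1.55 ± 0.222 SE), a copy of the hypoxia factor that induces glycolysis genes in mammals, was lower too. The 2 higher regulators, named here after their values were seen, were of the same families. pfkfb1 rose by 1.204 ± 0.361 SE and hif1aa, the duplicate of hif1ab, by 1.79 ± 0.588 SE. hif1aa had 3.62 and 2.98 CPM in wild type against 5.09 and 17.7 CPM in mutants. Its coverage was 0.793 and 0.780 times the low coverage of long genes in wild type against 0.637 and 1.91 times in mutants. For pfkfb1 it was 2.38 and 2.02 times in wild type against 3.13 and 1.92 times in mutants, which overlapped. These lists are described by their counts and medians, and none was tested as a set. On log2(TPM + 1) the medians were 0.56 for the regulators, 0.55 for transport and -0.36 for pyruvate entry and conversion. They were 0.39 for gluconeogenesis, -0.02 for pentose phosphate and 0.97 for glycogen. On that scale pfkfb4b had a log2 fold change above 0.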

How the data were processed

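RNA-seq of 4 libraries was analysed from the authors' files. Per the methods, fragments (150 nt, paired) were aligned with CLC Genomics Server to GRCz10, and no source used here gives the annotation or the read filters. The deposited counts are whole reads per gene (total and unique), and the deposited TPM and RPKM are the authors' values per kb of the length given, scaled to a common total or to all mapped reads. The files held 0 exon-exon reads. Counts were exon reads, or gene reads for the 15924 genes without an exon. None of the 10 genes overlapped another annotated gene. Chromosome numbers were taken from shared symbols in the GRCz12tu gene table, no coordinate was.

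Libraries were compared with edgeR 4.0.16 (TMM, filterByExpr, quasi-likelihood F test, Benjamini-Hochberg at 0.05) in R 4.3.3, with SE as the size of the log2 fold change over the square root of F. The common biological coefficient of variation was 0.340. Total counts per library were 42761199 to 50467517. Duplicates differed by more than sampling noise (chi-square per degree of freedom 165 in wild type, 58.7 in mutants). Alternatives were DESeq2 1.42.0, limma-trend (limma 3.58.1) on log2(TPM + 1) and log2(TPM + 0.1), library totals, other filters (1 and 50 reads), unique or whole-gene reads, genes under 10 kb, the replicate block and each library left out. Background subtraction, over 1509 genes spanning 80 to 160 kb, was added after seeing the data.

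Named were the 10 genes, other genes of the same enzymes, up to 4 genes of each other list with the smallest adjusted p, alms1 and ins. pgam2, pfkfb1 and hif1aa were added after their values were seen. 1 gene that this rule names is not reported here. The genes and lists were chosen with earlier results of these data known. Figures were drawn with matplotlib 3.10.9 in Python 3.11.15.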

Additional observations from a re-analysis of the deposited data

How the results depend on the processing

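Among the 10 genes, gapdh was higher and the 8 named above lower, with unchanged counts, under DESeq2, other read filters, unique or whole-gene reads and the replicate block (1 higher, 8 lower). With library totals 5 were lower and after background subtraction, chosen after seeing the data, 4. On log2(TPM + 1) and log2(TPM + 0.1) 0 were lower and 2 higher on each. On the latter scale 8768 of all 28079 genes were higher and 1495 lower. Of the 3 genes under 10 kb, 1 was lower and 1 higher, where 1616 of 12037 tested were lower and 1527 higher. Leaving out a library left 1 in its genotype, and calls named above were lost. The median log2 fold change of the 10 genes was then -1.41 to -1.11, and that of the like genes -1.49 to -1.29. No sign of the 8 genes or gapdh turned in any of these. Of 100 genes of the 7 surrounding lists, 23 were higher and 35 lower, where 19.2% of all genes were higher and 24.3% lower. The lower count was 16 with library totals, where 12.8% of all genes were lower, and 3 on each TPM scale, where 5.87% were on log2(TPM + 1). The higher count was 29 with library totals, where 29% of all genes were higher. It was 31 on log2(TPM + 1), where 35.2% of all genes were higher, and 26 on log2(TPM + 0.1). Under 10 kb only 24 of these genes were tested, with 3 lower and 5 higher, where 1616 of all 12037 such genes were lower and 1527 higher. After background subtraction 92 were tested, with 16 lower and 13 higher, where 15.4% of all genes were lower and 10.6% higher. Leaving out a library gave 10 to 25 higher and 15 to 30 lower, and the replicate block 20 and 24. With the block 4842 of all 28079 genes were higher and 6136 lower. Without either mutant library fewer of all genes were called in both directions too. The drop in the counts of the lists there was thus not particular to the lists. The deviations of libraries with the same replicate number had a correlation of -0.11. With 2 libraries a genotype this is a single value, which cannot settle whether the libraries were paired. In CPM 1 of 10 genes kept its TPM rank. By reads the mean shares of aldoab were 19.8% and 42.4% in wild type and mutants (12.4% and 29.6% by TPM), of gapdh 7.99% and 43.7% (30.7% and 79.9%) and of ldhba 81.4% and 76.6% (84.4% and 80.1%), and aldoab in wild type was at 11.8% after subtraction. The biological coefficient of variation was 0.340 over 2 libraries a genotype, and what depth alone limited was not tested.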
